A study of Mus musculus with 10 samples.

Results

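The mitochondrial protein import machinery was examined in activated muscle satellite cells (MuSCs) by 3′-end RNA-seq (CEL-Seq2). Its members were the entries of the count table whose symbols belong to the Tomm and Timm genes (Tomm or Timm followed by a digit), together with Timmdc1, Pam16, Dnlz, Samm50, Mtx1, Mtx2, Mtx3, Pmpca, Pmpcb, Romo1, Chchd4 and Gfer. This rule, which uses names and no measured value, found 37 members among 24620 entries, of which 35 had at least 1 count and 31 had enough counts to be tested. The study compared 5 libraries from control mice, which are Trpm7+/+, with 5 libraries from Trpm7 cKO mice, which are Trpm7 flox/flox. Both genotypes carry the Pax7 CreERT2/+ allele, a tamoxifen-inducible Cre that acts only in cells expressing Pax7, and both carry the Rosa26 YFP reporter. They were between 7 and 20 weeks old and received 5 injections of tamoxifen before cardiotoxin (CTX) injury of the muscle. For each library, 3000 sorted cells were lysed 3 days after the injury. TRPM7 is an ion channel that passes Mg2+ and carries a kinase domain.

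Most mitochondrial proteins are encoded in the nucleus, made in the cytosol and brought into the organelle by a chain of protein complexes. The TOM complex is the entry gate of the outer membrane, SAM builds barrel proteins into that membrane, and the MIA pathway traps small cysteine-rich proteins in the intermembrane space, among them the small TIM chaperones. TIM22 inserts carrier proteins into the inner membrane, TIM23 with its motor PAM passes proteins with a presequence into the matrix, and the processing peptidase MPP then removes the presequence. MuSCs are the stem cells of skeletal muscle, which leave quiescence and build up mitochondria when muscle is injured.

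Control libraries held between 914361 and 1097709 counts and Trpm7 cKO libraries between 205986 and 581121, so each count weighs more in the latter. Levels are given as CPM, which are counts relative to the total of the library, after scaling by the trimmed mean of M-values (TMM), and a gene was called lower or higher at an adjusted p under 0.05 in edgeR's quasi-likelihood test over 7753 genes. Trpm7 itself was counted 67, 66, 84, 83 and 66 times in control replicates 1 to 5 and 38, 55, 23, 28 and 10 times in Trpm7 cKO replicates 1 to 5, with a log2 fold change of -0.094 (SE 0.198, edgeR adjusted p = 0.723). Reads of this assay come from the 3′ end of a transcript, so this count does not check a deletion elsewhere in the gene. Genes of leukocytes were higher in Trpm7 cKO for 22 of the 22 tested, with summed CPM of 420.6 to 715.4 in control against 1651 to 7435 in Trpm7 cKO, and none of the 25 listed was at 0 in all control libraries. The 2 endothelial genes tested and 5 of 6 genes of fibroadipogenic cells were higher too. The identity genes of MuSCs were present in both groups, 12 higher and 5 lower of 22 tested, with summed CPM of 4569 to 5274 in control against 4079 to 7158 in Trpm7 cKO. Their part in the results on import genes was not tested beyond the fit with leukocyte genes given next. In bulk samples, fewer cells of a type and less RNA per cell cannot be told apart.

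Import machinery genes were lower in Trpm7 cKO MuSCs in 13 of 31 cases and higher in 0. Across all tested genes 24.1% were lower and 24.6% higher, so that 41.9% of the members lay on the lower side against 24.1% in the background. DESeq2 called 11 members lower and 0 higher after adjustment, against 22.1% and 24.3% of all tested genes. At an unadjusted p under 0.05 edgeR gave 16 lower members and 0 higher, and the share of all tested genes at that threshold was not computed. The members called lower were Tomm70a, Tomm5, Tomm20 and Tomm22 of the outer gate, Samm50 and Mtx2 of SAM, Chchd4 of MIA, Timm10 of the small TIM chaperones, Timm22, the channel subunits Timm17a, Timm17b and Timm23, and the peptidase subunit Pmpcb. The log2 fold change was negative for 27 members and positive for 4, with a median of -0.46 over the members and -0.006 over all tested genes. Summed over the tested members, the level was 2601 ± 84.8 CPM in control (SD, n = 5, range 2536.1 to 2738.6) and 1718 ± 150 CPM in Trpm7 cKO (SD, n = 5, range 1542.9 to 1892.7), and no library of either group reached the range of the other. Tomm70a, Timm17a and Samm50 made up 45.7% of the difference between these 2 sums. The changes were moderate in size: 0 members passed adjusted p under 0.05 together with a log2 fold change beyond 1.5, by edgeR and by DESeq2, which 3.53% of all tested genes did on the lower side and 8.49% on the higher side. In 8 members every Trpm7 cKO library lay below every control library, against 17.9% of all tested genes, and in 0 members every one lay above, against 16.6%.

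The count of 13 was between 11 and 13 when any 1 library was left out, was 11 without both control replicate 2 and Trpm7 cKO replicate 5 and 12 without both Trpm7 cKO replicates 3 and 5, while 0 members were higher in each of these fits. Of all tested genes, 19.4% to 23.6% were lower and 21.5% to 25.9% higher in these fits. Of the 13 genes, 9 passed whichever library was left out (edgeR adjusted p at most 0.0273), and Tomm20, Tomm22, Pmpcb and Timm23 did not. The count fell to 0 of 31 when the mean log2 CPM of the leukocyte genes entered the edgeR fit as a covariate. In that fit 2 members had an unadjusted p under 0.05, and 1.63% of all genes were lower and 4.72% higher. The log2 fold change was negative for 22 of 31 members there, with a median of -0.44. The summed CPM of the leukocyte genes does not overlap between the genotypes, so the effect of genotype and of the covariate cannot be told apart. With scaling on library totals alone 10 members were lower, with 19.4% of all genes lower and 27.9% higher, and with scaling on MuSC identity genes 16 were lower, with 27.0% and 16.7%.

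**Figure D1:**
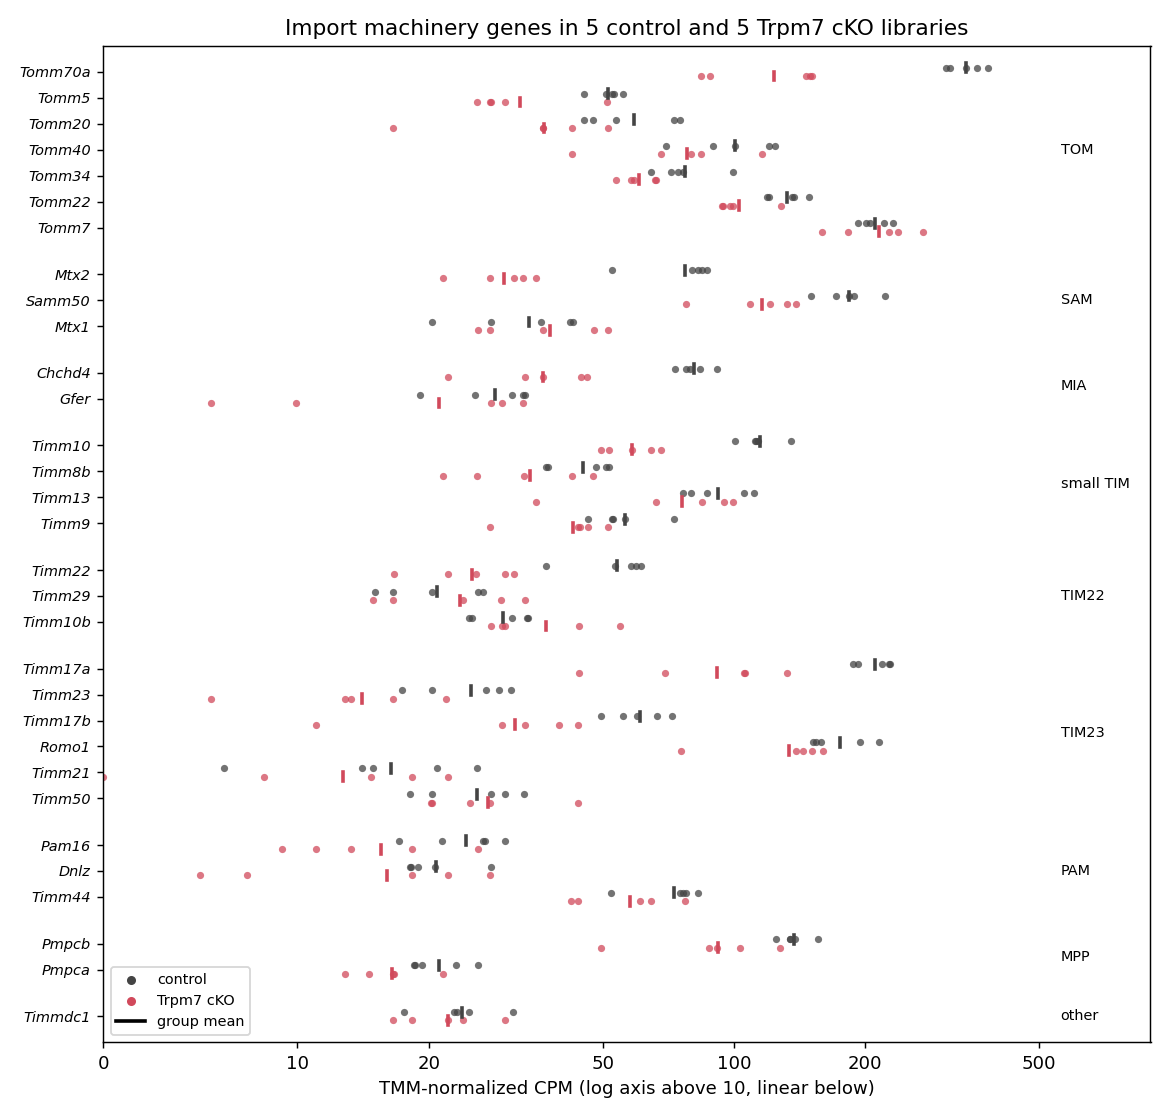
Normalized CPM of each of the 31 tested import genes (rows, grouped by complex) in 5 control (grey) and 5 Trpm7 cKO (red) libraries; points are libraries, short bars are group means, and the axis is logarithmic above 10. Tomm70a, Mtx2, Timm17a and Chchd4 show Trpm7 cKO points wholly to the left of control points, while Tomm7, Mtx1 and Timm50 overlap.

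The regulatory sequence in front of the members is shown for the most changed genes, Tomm70a and Mtx2, for Mtx1, whose product works beside that of Mtx2 but which was not called, and for Timm10, which holds the most motif copies among these and was chosen after they were counted. Each stretch runs from 250 bases before to 50 bases after the gene start in RefSeq (build GRCm38.p6), and capitals mark matches on either strand to the ETS motif CCGGAAG, the E-box CACGTG or the YY1 motif GATGGCGG. Tomm70a lies at chr16:57121464-57121763, plus strand, Mtx2 at chr2:74825562-74825861, plus strand, Mtx1 at chr3:89213858-89214157, minus strand and Timm10 at chr2:84826771-84827070, plus strand.
Tomm70a: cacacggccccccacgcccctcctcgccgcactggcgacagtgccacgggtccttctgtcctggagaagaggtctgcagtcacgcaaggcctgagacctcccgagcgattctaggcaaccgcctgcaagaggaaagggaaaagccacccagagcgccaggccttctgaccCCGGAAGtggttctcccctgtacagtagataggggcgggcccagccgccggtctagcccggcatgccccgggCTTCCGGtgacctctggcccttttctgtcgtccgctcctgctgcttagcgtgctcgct
Mtx2: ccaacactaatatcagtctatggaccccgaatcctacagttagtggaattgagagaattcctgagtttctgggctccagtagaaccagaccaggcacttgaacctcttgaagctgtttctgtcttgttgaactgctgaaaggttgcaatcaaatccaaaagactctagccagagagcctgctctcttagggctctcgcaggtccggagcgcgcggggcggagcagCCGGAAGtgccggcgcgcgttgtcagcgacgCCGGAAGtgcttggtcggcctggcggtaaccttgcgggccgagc
Mtx1: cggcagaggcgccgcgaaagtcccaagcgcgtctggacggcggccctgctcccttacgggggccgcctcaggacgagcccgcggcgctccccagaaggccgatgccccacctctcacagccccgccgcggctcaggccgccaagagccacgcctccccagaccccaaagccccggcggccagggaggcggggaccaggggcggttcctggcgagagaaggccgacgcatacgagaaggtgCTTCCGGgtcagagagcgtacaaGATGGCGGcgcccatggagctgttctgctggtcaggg
Timm10: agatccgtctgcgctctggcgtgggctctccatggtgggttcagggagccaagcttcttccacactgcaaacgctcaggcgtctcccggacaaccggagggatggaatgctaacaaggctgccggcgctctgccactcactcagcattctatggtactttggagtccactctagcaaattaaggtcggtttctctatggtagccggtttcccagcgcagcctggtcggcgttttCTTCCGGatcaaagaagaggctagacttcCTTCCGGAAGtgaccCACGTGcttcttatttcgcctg
Tomm70a and Mtx2 each held 2 ETS motifs, Timm10 held 3 that partly overlap and 1 E-box, and Mtx1 held 1 ETS and 1 YY1 motif. Over the 36 promoters of 34 members with a RefSeq entry, 50% held the ETS motif, 19.4% the E-box, 11.1% the YY1 motif and 2.78% the NRF1 motif GCGCATGC, against 8.86%, 7.15%, 1.7% and 2.71% of the 32851 promoters in the mouse table. Set against the promoters of all tested genes, the 31 promoters of tested members held the ETS motif in 51.6% against 19%, the E-box in 9.68% against 10.5%, the YY1 motif in 9.68% (3 promoters) against 4.14% and the NRF1 motif in 3.23% (1 promoter) against 5.64%. The E-box share of the members was thus close to that of tested genes, since 4 of the 7 member promoters with an E-box belong to members that were not tested. The ETS motif was in 6 of 14 promoters of members called lower and in 10 of 17 promoters of members tested and not called. At least 1 of the motifs was in 7 of 14 promoters (50%) of the former and in 13 of 17 (76.5%) of the latter. This share was 33.7% over the promoters of all tested genes, and the differences were not tested. Promoters of the lower members Timm17a, Timm22, Chchd4, Samm50, Timm17b and Tomm5 held 0 of the motifs. A match in a window of this length is a description of its letters and not a bound site.

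The complexes hold few tested genes each, so their counts are descriptions and were not set against one another. The TOM group was formed by name and also holds Tomm34, which is cytosolic and not a subunit of the complex. In this group 4 of 7 tested members were lower, 0 were higher and 3, Tomm34 among them, were not called. That is 57.1% lower, against 24.1% lower and 24.6% higher of all tested genes. The summed level of the group was 971 ± 28.3 CPM in control and 649 ± 58.3 CPM in Trpm7 cKO (SD, n = 5). Tomm70a encodes the receptor that takes in carrier proteins together with cytosolic chaperones. It was counted 342, 297, 357, 359 and 270 times in control replicates 1 to 5 and 79, 81, 23, 91 and 16 times in Trpm7 cKO replicates 1 to 5. The normalized level fell from 341 ± 32.1 to 124 ± 34.3 CPM (SD, n = 5), with all Trpm7 cKO libraries below all control libraries and a log2 fold change of -1.40 (SE 0.167, edgeR adjusted p = 1.37e-06). Tomm70a gave 24.6% of the summed difference of the machinery, the largest share of any member. The gene spans chr16:57121703-57156705 (GRCm38, plus strand). Its 3′ end overlaps Nit2 on the opposite strand, and whether counting used strand is not given in the sources used here.

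Tomm20 and Tomm22 encode the receptors for presequences, and Tomm40 the channel itself. Tomm20 was counted 54, 44, 68, 75 and 41 times in control and 23, 28, 10, 22 and 3 times in Trpm7 cKO, a log2 fold change of -0.58 (SE 0.231, edgeR adjusted p = 0.0430) with overlapping libraries. Tomm22 was counted 120, 133, 112, 135 and 128 times in control and 53, 54, 35, 57 and 17 times in Trpm7 cKO, a log2 fold change of -0.37 (SE 0.147, edgeR adjusted p = 0.0414), with Trpm7 cKO replicate 3 inside the control range. Both receptors lay close to the threshold. The call for Tomm20 was lost without any 1 of control replicates 1, 3 and 4 and Trpm7 cKO replicates 1, 3, 4 and 5 (edgeR adjusted p up to 0.116), and that for Tomm22 without any 1 of control replicates 2, 4 and 5 and Trpm7 cKO replicates 1, 2, 4 and 5 (up to 0.105). DESeq2 called neither.

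Tomm40 was counted 101, 120, 65, 89 and 104 times in control and 23, 37, 23, 48 and 21 times in Trpm7 cKO, with a log2 fold change of -0.46 (SE 0.218, edgeR adjusted p = 0.0904). The groups overlapped and the channel was not called, but it was called lower without control replicate 3 (edgeR adjusted p = 0.0401) or without Trpm7 cKO replicate 5 (0.0304). Tomm5, a small subunit of the complex, was lower, from 51.6 ± 3.83 to 32.4 ± 10.6 CPM (SD, n = 5; log2 fold change -0.72), although Trpm7 cKO replicate 3 lay at 51.2 CPM and so among the control libraries. Tomm7, another small subunit, was 210 ± 15.8 CPM in control and 215 ± 44.5 CPM in Trpm7 cKO and was not called (log2 fold change 0.015, edgeR adjusted p = 0.946), a sign that turned with scaling on MuSC identity genes. Tomm34, a cytosolic co-chaperone, was 77.35 ± 13.2 CPM in control and 60.5 ± 5.41 CPM in Trpm7 cKO (log2 fold change -0.38) and was not called. Tomm40l and Tomm20l, relatives of Tomm40 and Tomm20, had at most 1 count in any library and were not tested.

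In SAM, 2 of 3 tested members were lower (66.7%), against 24.1% of all tested genes. Samm50, the channel of this complex, was counted 223, 178, 140, 188 and 148 times in control and 42, 59, 38, 73 and 24 times in Trpm7 cKO. Its level fell from 183 ± 26.2 to 116 ± 24.2 CPM (SD, n = 5), without overlap, and the log2 fold change was -0.70 (SE 0.169, edgeR adjusted p = 0.00192). Mtx2, one of the metaxins at the cytosolic face of SAM, was counted 85, 51, 77, 80 and 75 times in control and 19, 17, 9, 13 and 5 times in Trpm7 cKO. The level of Mtx2 fell from 77.4 ± 14.03 to 29.7 ± 5.31 CPM (SD, n = 5), without overlap, and its log2 fold change of -1.38 (SE 0.213, edgeR adjusted p = 2.4e-05) was next to that of Tomm70a. The metaxin Mtx1 was 33.8 ± 9.64 CPM in control and 37.8 ± 11.5 CPM in Trpm7 cKO and was not called (log2 fold change 0.21, edgeR adjusted p = 0.518). Mtx3, with at most 9 counts in a library, was not tested.

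Ratios within a library were compared for 7 pairs of paralogues or of subunits of 1 complex, the metaxins among them. Of 10 pairs listed, these 7 had both genes tested. The log2 ratio of Mtx1 to Mtx2 was -1.15 ± 0.551 in control and 0.29 ± 0.593 in Trpm7 cKO (SD, n = 5), a difference of 1.44 with no overlap between the groups. The exact permutation p, two-sided, was 0.00794, the smallest that 5 against 5 libraries allow, and 0.0556 after adjustment over the 7 pairs, which misses the threshold. Over 7 pairs, 1 fully separated pair alone can reach no lower adjusted value. A call would also have needed a lower p in another pair than was seen, and the ratio was not called. Timm9 to Timm10 shifted by 0.56 (exact permutation p = 0.0159, adjusted 0.0556) with overlapping groups, and the other 5 pairs had exact permutation p-values between 0.175 and 0.381. The ratio of Timm17a to Timm17b was 1.75 ± 0.137 in control and 1.48 ± 0.541 in Trpm7 cKO (SD, n = 5), so the spread in Trpm7 cKO was wide.

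**Figure D2:**
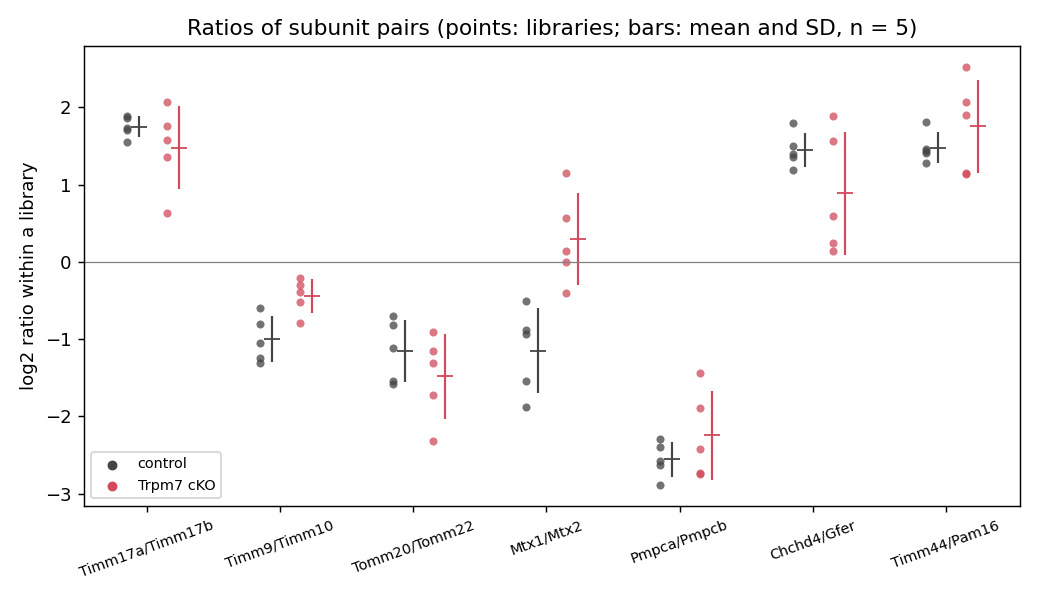
Log2 ratio of normalized CPM within a library for the 7 pairs of subunits tested, in control (grey) and Trpm7 cKO (red); points are libraries and bars are mean and SD (n = 5). Mtx1/Mtx2 moves from a mean of -1.15 to 0.29 and is the pair whose groups do not overlap.

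The MIA pathway joins the oxidoreductase Chchd4, which folds incoming proteins by making disulphide bonds, and Gfer, which reoxidises it. Chchd4 was counted 92, 81, 74, 73 and 67 times in control and 18, 25, 10, 27 and 4 times in Trpm7 cKO. Its level fell from 81.1 ± 6.91 to 36.5 ± 9.71 CPM (SD, n = 5), without overlap, with a log2 fold change of -1.07 (SE 0.186, edgeR adjusted p = 9.17e-05). Gfer was 28.3 ± 6.02 CPM in control and 21.1 ± 12.4 CPM in Trpm7 cKO and was not called. It was near the control level in Trpm7 cKO replicates 1 to 3 and below it in replicates 4 and 5.

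The small TIM chaperones, clients of that pathway, carry hydrophobic proteins across the intermembrane space. Of 4 tested, 1 was lower, a share near the 24.1% of all tested genes. Timm10 went from 115 ± 12.7 to 58.4 ± 7.87 CPM (SD, n = 5; log2 fold change -0.94, SE 0.161, edgeR adjusted p = 7.44e-05), with all Trpm7 cKO libraries below control. Timm9, which forms a ring with Timm10, was counted 53, 51, 68, 56 and 40 times in control and 24, 28, 12, 28 and 5 times in Trpm7 cKO. It was not called (log2 fold change -0.33, SE 0.197, edgeR adjusted p = 0.173). Timm13 and Timm8b, which form the other ring, had log2 fold changes of -0.35 and -0.46 and were not called, with means of 91.9 and 45.1 CPM in control and 76.1 and 34.1 CPM in Trpm7 cKO. Timm8a1 had at most 6 counts in a library and Timm8a2 had 0, and neither was tested.

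In TIM22, 1 of 3 tested members was lower. On so few genes this share of 33.3% does not set TIM22 apart from the 24.1% of all tested genes. Timm22, the pore of this complex, was counted 60, 36, 57, 58 and 46 times in control and 9, 17, 7, 18 and 4 times in Trpm7 cKO. The level fell from 53.9 ± 9.80 to 25.1 ± 5.95 CPM (SD, n = 5), without overlap, with a log2 fold change of -1.07 (SE 0.232, edgeR adjusted p = 0.000741). The accessory subunits Timm29 and Timm10b had positive log2 fold changes of 0.19 and 0.22 and were not called. Timm29 was 20.9 ± 5.27 CPM in control and 23.6 ± 7.91 CPM in Trpm7 cKO, Timm10b 29.6 ± 4.47 and 37.2 ± 11.9 CPM (SD, n = 5), and with Mtx1 and Tomm7 they were the 4 members above 0.

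In TIM23, 3 of 6 tested members were lower (50%), against 24.1% of all tested genes. The sum of the complex fell from 513 ± 12.4 to 311 ± 46.8 CPM (SD, n = 5). Timm17a, a channel subunit, was counted 229, 186, 211, 217 and 162 times in control and 57, 72, 19, 64 and 8 times in Trpm7 cKO. The level was 210 ± 19.1 CPM in control and 91.5 ± 34.7 CPM in Trpm7 cKO (SD, n = 5), without overlap, and the log2 fold change was -1.11 (SE 0.189, edgeR adjusted p = 7.11e-05). Timm17b, its close relative, fell from 60.8 ± 8.94 to 31.5 ± 12.7 CPM (SD, n = 5; log2 fold change -0.87), also without overlap. Both forms of Timm17 were lower.

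Timm23, the partner of Timm17 in the channel, was counted 31, 28, 19, 27 and 15 times in control and 3, 7, 6, 8 and 3 times in Trpm7 cKO. Its log2 fold change was -0.96 (SE 0.318, edgeR adjusted p = 0.0168) with overlapping groups, and without Trpm7 cKO replicate 1 the adjusted p was 0.0658. This value is uncertain, since 95.0% of the last 500 bases of the transcript are shared with other annotated genes, between which the authors' counting could have split or dropped reads. Romo1, a small accessory subunit, was 175 ± 28.5 CPM in control and 134 ± 33.5 CPM in Trpm7 cKO (log2 fold change -0.41) and was not called. Romo1 was called lower without Trpm7 cKO replicate 4 (edgeR adjusted p = 0.0453) or without Trpm7 cKO replicate 5 (0.0484). The receptor Timm50 was 25.8 ± 6.36 CPM in control and 27.4 ± 9.72 CPM in Trpm7 cKO (SD, n = 5; log2 fold change -0.0067), with a sign that turned between settings, and Timm21 one of -0.22 at few counts (0 in Trpm7 cKO replicate 5), and neither was called.

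Of the motor PAM, 0 of 3 tested members were called by edgeR, with 0 also under an unadjusted p of 0.05 (lowest 0.0557, for Pam16). With 24.1% of all tested genes lower, 0 of 3 does not set PAM apart. All 3 log2 fold changes were negative, with a median of -0.57. Timm44, which tethers the motor to the channel, was counted 77, 75, 77, 52 and 65 times in control and 33, 23, 12, 39 and 14 times in Trpm7 cKO, with a log2 fold change of -0.36 (SE 0.195, edgeR adjusted p = 0.136) and overlapping groups. Pam16, a regulator of the motor, was 24.4 ± 5.07 and 15.5 ± 6.70 CPM (log2 fold change -0.61), and Dnlz, which keeps the motor chaperone soluble, 20.7 ± 4.08 and 16.1 ± 9.65 CPM (log2 fold change -0.57; SD, n = 5). Pam16 shares 97.8% of its last 500 transcript bases with another annotated gene, Gm9803, and is uncertain for that reason. Without Trpm7 cKO replicate 1 its log2 fold change was -0.96 and it was called lower (edgeR adjusted p = 0.0221). DESeq2 called 0 of the 3. In MPP, the catalytic subunit Pmpcb was lower and Pmpca was not called (log2 fold change -0.33). Pmpcb was counted 139, 151, 125, 134 and 108 times in control and 69, 56, 25, 53 and 9 times in Trpm7 cKO, with a log2 fold change of -0.52 (SE 0.172, edgeR adjusted p = 0.0176). Trpm7 cKO replicate 1 overlapped control for Pmpcb, and the call was lost without control replicate 2 (edgeR adjusted p = 0.0508). Timmdc1, an assembly factor of respiratory complex I that shares the name but not the import role, was 23.9 ± 4.86 CPM in control and 22.1 ± 5.21 CPM in Trpm7 cKO (SD, n = 5; log2 fold change -0.026). Tomm6os, a non-coding antisense entry that the name rule took in, had 0 counts.

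**Figure D3:**
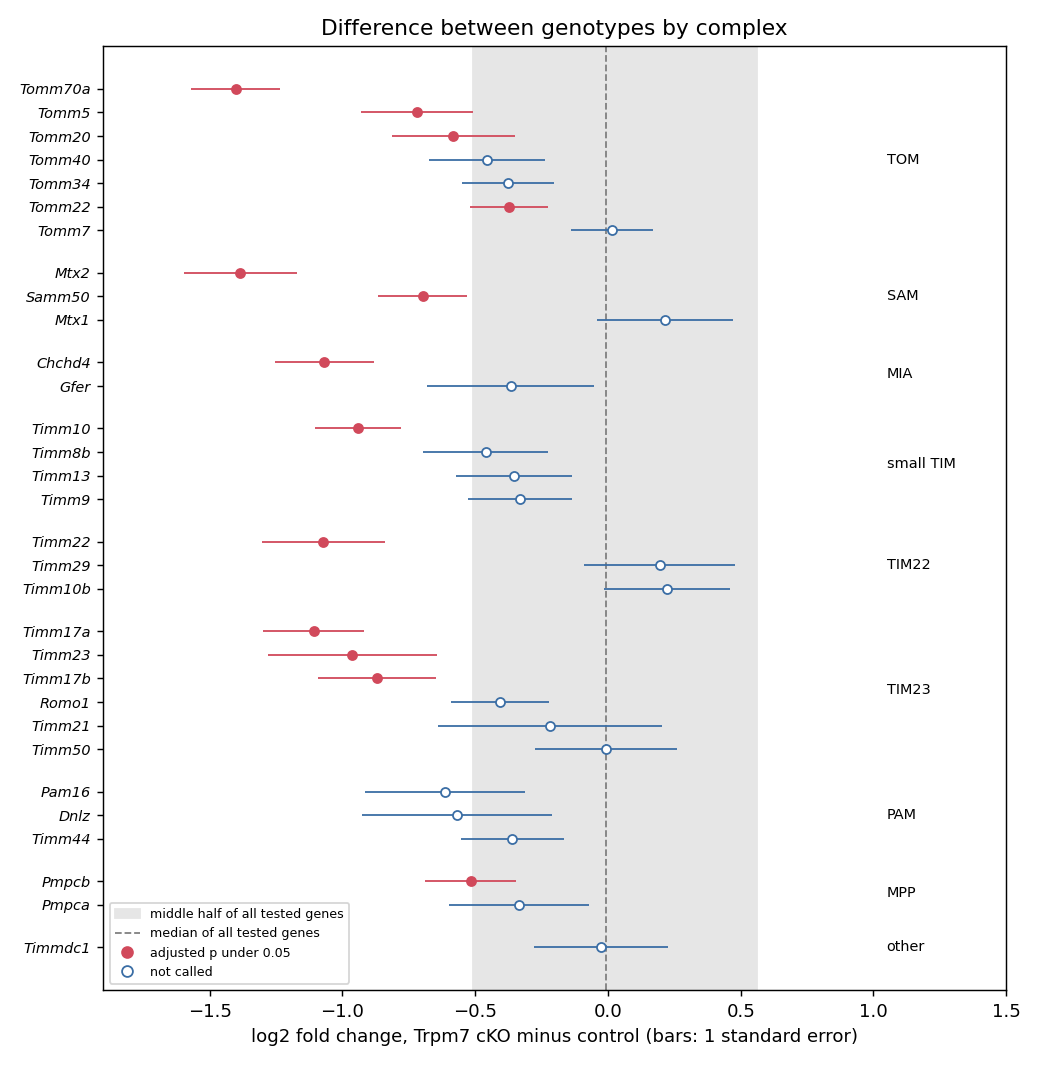
Log2 fold change, Trpm7 cKO minus control, of the 31 tested import genes with 1 standard error, ordered by complex; filled red points passed adjusted p under 0.05, open blue points did not, the grey band spans the middle of all tested genes from the 25th to the 75th percentile and the dashed line is their median. Called genes appear in every complex except PAM and the ungrouped Timmdc1, with Tomm70a at -1.40 and Mtx2 at -1.38 the lowest. PAM has 3 tested genes, all with negative log2 fold changes.

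**Figure D4:**
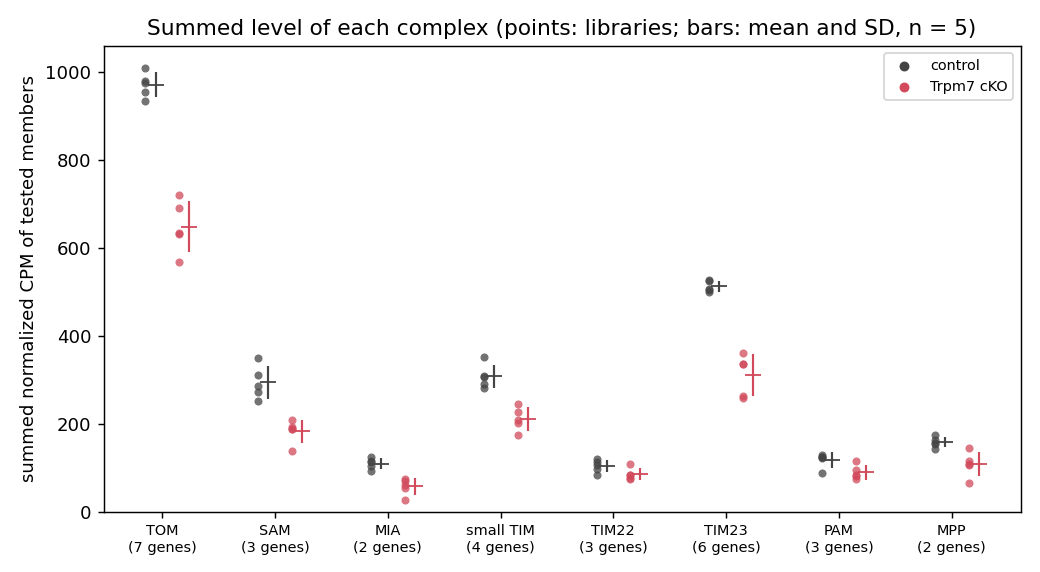
Summed normalized CPM of the tested members of each complex in control (grey) and Trpm7 cKO (red); points are libraries and bars are mean and SD (n = 5). The sums of TOM, TIM23, SAM, MIA and small TIM do not overlap between genotypes, while those of TIM22, PAM and MPP do. The sum of TOM includes the cytosolic Tomm34.

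Filtering on low counts bears on which members are counted. Of the 31 tested members 24 reached the cut-off of 13.4 CPM in all 10 libraries, and among the 13 called lower 11 did, the exceptions being Timm23 and Timm17b. With a filter that takes the mean CPM over all libraries, chosen after the data were seen, 14 of 31 members were lower and 0 higher. Of all genes tested in that fit, 22.9% were lower and 25% higher.

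Genes that work with the import machinery without belonging to it by name (chaperones, insertases, proteases, cristae proteins and porins, 38 entries, 33 tested) had 15 lower (45.5%) and 1 higher (3%), against 24.1% and 24.6% of all tested genes, with a median log2 fold change of -0.46. Hspe1, the co-chaperonin of the matrix, was counted 1953, 1402, 1853, 2025 and 1221 times in control and 282, 373, 111, 406 and 61 times in Trpm7 cKO. The log2 fold change of Hspe1 was -1.73 (SE 0.189, edgeR adjusted p = 5.29e-07), without overlap. Aifm1, which anchors Chchd4 in the intermembrane space, was also lower, from 106 ± 31.3 to 32.4 ± 6.96 CPM (SD, n = 5; log2 fold change -1.66), and these 2 genes passed both thresholds. Apoo, a subunit of the cristae complex MICOS, had a log2 fold change of -1.36 with overlapping groups.

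Mtch1, a relative of the outer membrane insertase Mtch2, was the partner gene that was higher. It rose from 39.9 ± 5.32 to 95.2 ± 30.7 CPM (SD, n = 5; log2 fold change 1.18, SE 0.197, edgeR adjusted p = 6.07e-05), with all Trpm7 cKO libraries above all control libraries. Hspa9, the chaperone that drives the PAM motor, was 462 ± 47.7 CPM in control and 383 ± 27.4 CPM in Trpm7 cKO and was not called (log2 fold change -0.27, edgeR adjusted p = 0.0920), but it was called lower without Trpm7 cKO replicate 4 (edgeR adjusted p = 0.0389) and with no filter (0.0139). For comparison, of 72 tested genes of the mitochondrial ribosome 32 were lower (44.4%) and 3 higher (4.2%), against the same 24.1% and 24.6% of all tested genes, with a median log2 fold change of -0.51, and whether the import genes differ from them was not tested. Transcripts of the mitochondrial genome took 12.04% to 16.47% of counts in control and 8.818% to 10.6% in Trpm7 cKO.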

How the data were processed

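Control and Trpm7 cKO MuSCs were profiled by 3′-end RNA-seq with molecular identifiers. The authors deposited whole-number counts per gene, made with UMI-tools 1.1.4, Trim Galore 0.6.10, HISAT2 2.2.1 and featureCounts 2.0.6 on GRCm38 according to the submitters' processing notes and the study's methods. The annotation release and strand setting are not given in the sources used here. Genotype came from the sample labels. Nothing in the labels says that each library is a separate mouse, so p-values measure the spread between these libraries. The library names of Trpm7 cKO replicates 4 and 5 share a number but differ in its suffix, and the meaning of either is not stated. No pair of libraries agreed within counting noise.

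Counts were analysed with edgeR 4.0.16 (R 4.3.3), with TMM factors, filterByExpr (minimum count 10, minimum total 15) and a robust quasi-likelihood fit of genotype over all 10 libraries. P-values were adjusted by Benjamini-Hochberg over 7753 genes, and standard errors derive from the F statistic. Of 12 symbols listed again, the entry with the larger total was kept. Subunit ratios (prior count 2) used an exact permutation test over 252 splits. The scripts were tested on simulated data. Alternatives were DESeq2 1.42.0 (the study used 1.30.1), other scalings and filters, thinning to 205986 counts, a replicate block, a leukocyte covariate and leaving out libraries; 3 were added after the data were seen.

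Fully described were the 4 lowest and 4 highest log2 fold changes among called members with a mean of at least 10 CPM, the core member of each complex and both genes of any called pair (there was none). Of partner genes the 3 lowest called, the only 1 called higher and Hspa9 were named, and Trpm7 as the target. Timm10, Mtx1 and the other members are described with their complexes. Promoters were taken from RefSeq and gene overlaps from GENCODE on GRCm38. Members and lists were chosen with earlier results of these data known. Tomm6 was not analysed here.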

Additional observations from a re-analysis of the deposited data

Results flagged for a closer look

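In 6 of 76 groups of 5 libraries checked, 1 library stood far from the other 4 by Dixon's criterion, which chance flags in about 1 in 20 groups. Mtx2 was 52.7 CPM in control replicate 2, against 80.3 to 86.8 CPM in the other control libraries. Tomm5 was 51.2 CPM in Trpm7 cKO replicate 3, against 25.8 to 29.8 CPM in the others of its group. Tomm22 was 127.9 CPM in the same library, against 93.8 to 99.4 CPM. Romo1 was 75.8 CPM in Trpm7 cKO replicate 1, against 138.8 to 160.0 CPM. Timm44 was 52.2 CPM in control replicate 4, against 75.2 to 82.6 CPM. Dnlz was 27.8 CPM in control replicate 5, against 18.1 to 20.7 CPM.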

How the results depend on the processing

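The count of 13 lower members was 11 with DESeq2, 13 with RLE factors, 10 with library totals alone, 16 with scaling on MuSC identity genes, 19 of 35 with no filter, 11 with a stricter filter, 15 with Trpm7 cKO replicates 4 and 5 summed and 11 to 13 with any 1 library left out. It was 6 of 16 tested after thinning to the smallest library and 0 with the leukocyte covariate. Of all tested genes, the share lower was 22.1% with DESeq2, 23.6% with RLE factors and 19.4% with library totals alone. That share was 27.0% with scaling on MuSC identity genes, 12% with no filter and 23.4% with the stricter filter. With Trpm7 cKO replicates 4 and 5 summed it was 23.2%, after thinning 22.5% and with the leukocyte covariate 1.63%. Scaling on MuSC identity genes shifted the median of all genes by -0.21, no filter by 0.17 and library totals by 0.10. Members past both thresholds were 0, except 2 with scaling on MuSC identity genes and 2 with no filter. Higher members were 0 throughout. The median log2 fold change of the members lay between -0.63 and -0.36 over all alternatives and between -0.52 and -0.39 with 1 library left out. Lower partner genes were 15, and 9 after thinning, 0 with the leukocyte covariate, 19 with no filter, 14 with library totals alone, 15 to 16 in the other alternatives and 15 to 17 with 1 library left out. Higher partner genes were 1, but 2 with library totals, 0 with the leukocyte covariate and 1 to 2 with 1 library left out (2 without control replicate 5). Called pair ratios were 0 in every alternative run, but over 7 pairs 1 fully separated pair alone reaches no lower than an adjusted p of 0.0556, so this count says nothing about stability. The cause of these changes was not tested, except that thinning left fewer genes to test.

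The replicate numbers did not pair the libraries (same-number correlations from -0.118 to 0.181, with 1 of 5 numbers matching its own best). With a replicate block 12 members were lower and 0 higher, against 22.7% and 23.4% of all tested genes. The block of 5 pairs cannot bring a pair ratio's exact permutation p below 0.0625.

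With the leukocyte covariate, 22 of 31 members had a negative log2 fold change, with a median of -0.44 over the members. The members whose sign turned in that fit were Dnlz (0.21), Gfer (0.82), Timm10b (-0.35), Timm21 (1.11), Timm9 (0.26), Timmdc1 (0.26) and Tomm20 (0.78), none called. Timm50 was 0.0137 with DESeq2, 0.0042 with RLE factors, 0.0907 with library totals, 0.0145 with the stricter filter, 0.0291 with the replicate block, 0.0868 without both control replicate 2 and Trpm7 cKO replicate 5, and -0.19 to 0.11 with 1 library left out. Tomm7 was -0.189 with scaling on MuSC identity genes, -0.195 with no filter, -2e-04 with Trpm7 cKO replicates 4 and 5 summed, -0.0256 with the mean filter, -0.0196 without both control replicate 2 and Trpm7 cKO replicate 5, -0.121 without both Trpm7 cKO replicates 3 and 5, and -0.0849 to 0.0944 with 1 library left out. Timmdc1 was 0.0838 with library totals, 0.0918 without Trpm7 cKO replicates 3 and 5 and -0.18 to 0.0924 with 1 library left out. Timm29 was -0.0539 with scaling on MuSC identity genes and -0.0175 to 0.363 with 1 library left out. Timm10b was -0.0259 without Trpm7 cKO replicates 3 and 5, Tomm34 0.0519 after thinning, and the Tomm20 to Tomm22 ratio differed by 0.12 after thinning. Without the shallowest library, Trpm7 cKO replicate 5, 31 members were tested and 13 were lower (41.9%), against 21.7% of all tested genes.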
